A study of Mus musculus with 10 samples.

Results

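OVE853 is a mouse line that carries a moderate level of a TGF-β1 transgene in the lens, and its lens epithelium was set against that of wild-type (WT) mice. The comparison rests on 6 of the 10 RNA-seq libraries of the study, 3 from OVE853 and 3 from WT, and on all genes expressed above a minimum, 11097 of the 50763 genes in the count table. Both groups are on the FVB/N background and were 3 weeks old. In OVE853 mice the αA-crystallin promoter, which acts mainly in lens cells, drives a human TGF-β1 that is constitutively active, whereas WT mice have no transgene and no mouse of either group received a treatment. Each OVE853 library was made from up to 18 explants of 9 mice that had anterior subcapsular plaques, and each WT library from up to 9 mice, so that the replicates are pools. The 4 libraries of OVE918, a second line with the same transgene and more of its transcript, with up to 14 explants of 7 mice each, entered the shared fit and were otherwise used to show where OVE853 differs from it. Plaques were not separated from the surrounding cells.

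The lens epithelium is a single layer of cells under the anterior capsule, a thick basement membrane that these cells secrete. It carries out most of the ion pumping, nutrient uptake and antioxidant defence of the lens and supplies the cells that become fibers. TGF-β binds receptor kinases that phosphorylate SMAD2 and SMAD3, and these enter the nucleus with SMAD4 to control transcription. In the lens, active TGF-β is known for turning epithelial cells into matrix-secreting, contractile cells that form subcapsular plaques, the change called epithelial-mesenchymal transition (EMT).

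Total counts ranged from 24073311 to 31908525 per library. All levels below are CPM values, a gene's counts relative to its library size after TMM scaling, given in the order of replicates 1, 2 and 3. The OVE853 libraries lay close together, with root mean square distances between 0.244 and 0.315 on the log2 CPM scale, whereas WT replicate 3 lay 0.624 and 0.528 from the other WT libraries, which were 0.396 apart. Summed markers of retinal neurons were 107, 128 and 1078 CPM in the WT libraries and 44.6, 84.3 and 31.96 CPM in OVE853. Those of the cornea, nearly all of it Aldh3a1, were 251, 957 and 1638 CPM and 108, 95.9 and 136 CPM. Those of the pigmented epithelium were 210.4, 115 and 192 CPM and 43.1, 68.7 and 86.5 CPM. Those of Müller glia were 8902, 8564 and 11713 CPM and 6945, 6164 and 6433 CPM. The Müller list shares Apoe, Glul and Dkk3 with the lens, and Dkk3 alone had means of 3447 CPM in WT and 1990 CPM in OVE853. These 4 sums were higher in every WT library than in any OVE853 library, and WT replicate 3 was highest in 3 of them. None of the 3 tested markers of the pigmented epithelium was a DEG, but genes expressed in WT alone were not tested. With the minimum of expression required in 3 libraries instead of 5, 2 of 6 tested members of this list were reduced DEGs. The melanocyte list, which shares Tyr, Tyrp1, Dct, Pmel and Mlana with that list but lacks Oca2, overlapped. Its sums were 139.7, 43.5 and 47.4 CPM in WT and 37.1, 59.8 and 79.0 CPM in OVE853. Of the 8 tested markers of Müller glia 5 were reduced DEGs and 1 was elevated, against 1 and 1 without WT replicate 3. Markers of lens fiber cells varied within both groups, with 36732, 21195 and 17689 CPM in WT and 17573, 46805 and 14666 CPM in OVE853. All 10 defining markers of the lens epithelium, such as Pax6, Foxe3 and Cdh1, were expressed above the minimum, and Gja1 was the only DEG among them. At the FDR limit alone 3 of the 10 were lower and 0 higher, and the sums, most of them Cryaa, were 160840, 155550 and 156110 CPM in WT and 120340, 116890 and 105620 CPM in OVE853, lower in every OVE853 library. In WT replicate 2 all 4 Y-linked genes examined (Ddx3y, Eif2s3y, Kdm5d and Uty) had 0 counts, which allows up to 3 counts each, although the methods state equal numbers of both sexes. Their sums were 52.1, 0 and 45.5 CPM in WT and 152, 98.3 and 51.9 CPM in OVE853. Xist, the marker of female sex, had 877, 989 and 418 CPM and 408, 963 and 1332 CPM. No gene on chromosome Y was called below, while 13 of the 491 DEGs were on chromosome X, whose share of all genes tested was not counted. The part of the sex mix of the pools in these values was not tested.

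Tgfb1 was the check of the transgene. Its level was 50.6, 61.7 and 50.7 CPM in WT and 361, 339 and 349 CPM in OVE853, so that the groups did not overlap and the OVE853 libraries differed little from each other. The log2 fold change was 2.69 (standard error 0.13, FDR = 7.06e-07), where FDR is the Benjamini-Hochberg adjusted p of edgeR's quasi-likelihood test over all genes tested, here and below. Counts on the mouse gene can hold transcripts of the human transgene. Cryaa, which encodes αA-crystallin, was the most abundant gene, with 116599, 114482 and 118693 CPM in WT and 88415, 85362 and 76865 CPM in OVE853. All OVE853 libraries were lower, but the log2 fold change of -0.48 did not pass the test (FDR = 0.0796).

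Differentially expressed genes (DEGs) were those with an FDR of at most 0.05 and at least a 2-fold change. In OVE853, 279 genes were elevated and 212 reduced, which is 2.51% and 1.91% of the genes tested and 4.42% together. At the FDR limit alone 899 genes (8.1%) were higher and 853 (7.69%) lower. All 279 elevated and 208 of the 212 reduced DEGs had OVE853 and WT libraries that did not overlap, as did 45.4% of all genes tested. The elevated DEGs together rose from 7570.1 CPM in WT to 23243 CPM in OVE853 and had a median log2 fold change of 1.57, while the reduced DEGs summed to 21974 CPM in WT and 7249 CPM in OVE853 with a median of -1.41. Elevated DEGs were mostly rare transcripts, with a median of 8.66 CPM in WT and 29.4 CPM in OVE853, and the median reduced DEG went from 45.4 CPM to 13.6 CPM. Among the 2220 genes of lowest abundance 95 were elevated and 23 reduced, whereas among the 2220 most abundant genes the numbers were 45 and 46.

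Leaving out WT replicate 3 left 227 of the elevated and 116 of the reduced DEGs past the threshold, and 15 of the reduced were then no longer tested, while the counts in that fit were 273 (2.49%) and 123 (1.12%). Among WT libraries, replicate 3 had the highest level in 171 of the 212 reduced DEGs (80.7%), as it did in 40.5% of all genes tested. The number of reduced DEGs was 132 without OVE853 replicate 1 and 131 without OVE853 replicate 3. In each of the 6 fits that left out a WT or an OVE853 library, 175 elevated and 92 reduced genes were DEGs again.

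**Figure D1:**
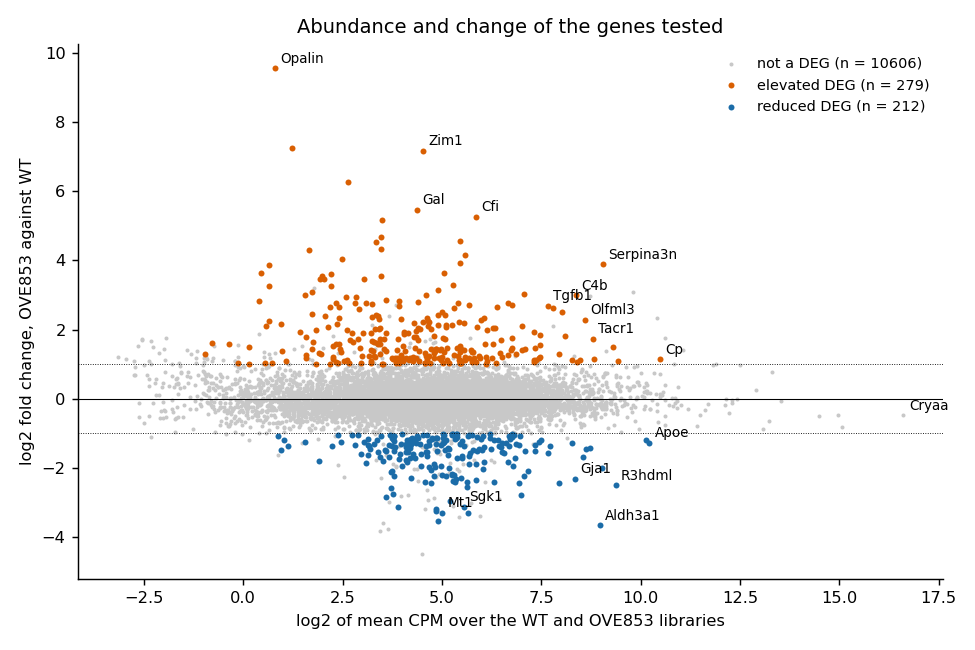
Each point is a gene tested, with the log2 of its mean CPM over the 6 WT and OVE853 libraries on the x axis and its log2 fold change in OVE853 against WT on the y axis. The 279 elevated DEGs reach higher fold changes than the 212 reduced ones, mostly at low abundance, and dotted lines mark a 2-fold change.

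By abundance, the elevated DEGs were led by secreted proteins. Cp, which encodes the copper-carrying ferroxidase ceruloplasmin, had 1026, 839.7 and 821 CPM in WT and 1829, 2067 and 2012 CPM in OVE853. It gained more CPM than any other DEG, with a log2 fold change of 1.14 (standard error 0.12, FDR = 0.000222), and each OVE853 library was well above all of WT. Serpina3n, a secreted inhibitor of serine proteases, came next with 72.9, 50.9 and 77.3 CPM in WT and 1041, 840.1 and 1091 CPM in OVE853. Its log2 fold change was 3.89 (FDR = 2.63e-06), and its reads could be divided with near-identical paralogs. Islr, a leucine-rich repeat protein of the matrix, had 398, 425 and 183 CPM and 852, 963 and 993 CPM. Olfml3, an olfactomedin-like secreted protein, had 192, 145 and 61.2 CPM and 621, 657 and 659 CPM. For both of these WT replicate 3 was the lowest WT library, and without it the log2 fold changes were 1.18 and 1.94 in place of 1.48 and 2.28. Scube1, a secreted and membrane-bound EGF-repeat protein, had the same pattern, with 114, 98.98 and 21.2 CPM in WT and 449, 414 and 467 CPM in OVE853 and a log2 fold change of 2.51.

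The other large gains were in genes of several kinds. C4b, the complement factor C4, rose from 62.3, 50.6 and 107 CPM to 645, 502 and 608 CPM (log2 fold change 2.995, FDR = 0.000104). Tacr1, the receptor of substance P, had 203, 246 and 168 CPM and 702, 720.4 and 633 CPM. Peg3, an imprinted zinc finger gene, went from 74.1, 60.6 and 49.2 CPM to 365, 406 and 368 CPM (log2 fold change 2.63, FDR = 8.33e-05). Lama5, the laminin α5 chain, had 343, 338 and 172 CPM in WT and 632, 581 and 673 CPM in OVE853. Sema5a, a semaphorin, had 335, 217 and 117 CPM and 479, 514 and 467 CPM. Ece1, which processes endothelin, had 254, 227 and 174 CPM and 469, 468 and 437 CPM. In all of these genes the OVE853 libraries lay above all of WT, and C4b, Tacr1 and Peg3 were DEGs again without WT replicate 3. Without that library the log2 fold changes of Lama5 (0.88, FDR = 0.0268), Sema5a (0.82, FDR = 0.0704) and Ece1 (0.93, FDR = 0.00158) did not pass both limits.

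The DEGs with the largest losses had several functions. Apoe, the lipid carrier apolipoprotein E, had 1342, 1152 and 2559 CPM in WT and 803, 595 and 704 CPM in OVE853 (log2 fold change -1.27, FDR = 0.0162), and without WT replicate 3 its log2 fold change was -0.83. R3hdml, a putative inhibitor of serine proteases, was steadier in WT, with 1071, 1083 and 1217 CPM, and fell to 181, 220.1 and 199 CPM (log2 fold change -2.49, FDR = 8.33e-05). Slc6a6, the taurine transporter, had 1792, 1039.6 and 1831 CPM and 669.7, 704 and 666 CPM. Ptgds, which makes prostaglandin D2, had 861, 663 and 984 CPM and 222, 197 and 202 CPM. Gja1, the gap junction protein connexin 43 of the lens epithelium, fell from 572, 546 and 512 CPM to 97.97, 127 and 104 CPM, with a log2 fold change of -2.31 (standard error 0.15, FDR = 6.49e-06), and it kept -2.35 without WT replicate 3.

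Aldh3a1, an aldehyde dehydrogenase that is a main protein of the cornea, had 236, 937 and 1611 CPM in WT and 67.005, 62.6 and 92.4 CPM in OVE853. Its WT level differed widely between pools. Krt12, the keratin that defines the corneal epithelium, had 0.760, 0.654 and 4.91 CPM in WT and 0 counts in all 3 OVE853 libraries. Krt4, another keratin on the cornea list, was an elevated DEG, with 8.41, 11.4 and 6.17 CPM and 37.1, 29.9 and 38.1 CPM. The part of corneal tissue in the fall of Aldh3a1 was not tested. Glul, glutamine synthetase, was high mainly in WT replicate 3, with 333, 329.8 and 1060.4 CPM in WT against 189.8, 177 and 169 CPM in OVE853, and the log2 fold change of -1.69 became -0.89 without that library. Optc, the small leucine-rich proteoglycan opticin, had 873, 462 and 388 CPM and 168, 222 and 246 CPM. Col18a1, a basement membrane collagen, had 533, 377 and 399 CPM and 174, 165 and 195 CPM. Of these 4 genes only Glul lost its call without WT replicate 3, because of the fold change.

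**Figure D2:**
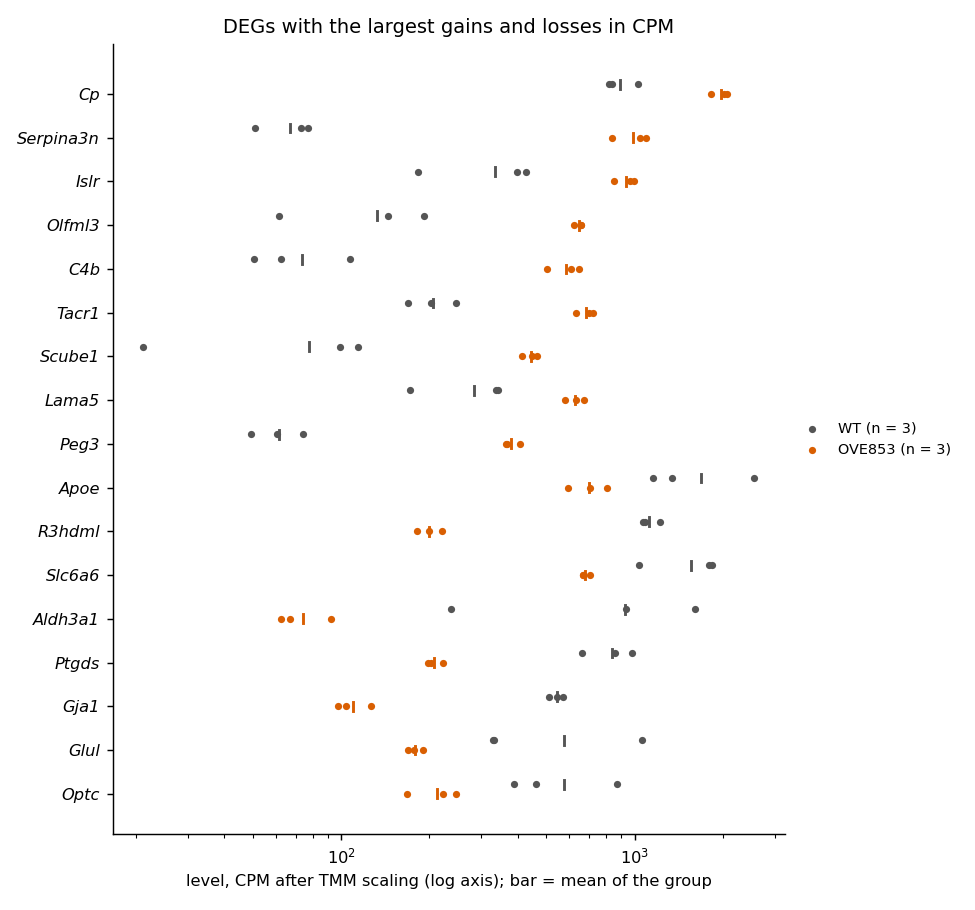
Levels in CPM after TMM scaling (x axis, log scale) of DEGs with the largest gains and losses in mean CPM, with 1 point for each of the 3 WT and 3 OVE853 libraries and a bar at each mean. The OVE853 points of each gene lie to one side of all WT points, for example from 621 to 659 CPM for Olfml3 against 61.2 to 192 CPM in WT.

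Genes of very high abundance can move by many transcripts without reaching a 2-fold change, and these were looked at after their values had been seen. Clu, the secreted chaperone clusterin, had 7180.4, 7290.4 and 7974 CPM in WT and 12999.7, 12438 and 13192 CPM in OVE853. Its gain of 5395 CPM exceeded that of any DEG, with a log2 fold change of 0.78 (standard error 0.12, FDR = 0.00162). Nid1, the capsule protein nidogen 1, had 3169.9, 2779.5 and 1372 CPM and 4419, 5306 and 4764 CPM, and its log2 fold change of 0.98 passed the FDR limit (FDR = 0.0472). In the other direction, Cryba2, a β-crystallin, went from 11408, 10991 and 10945 CPM to 6414, 6795 and 5099 CPM, a log2 fold change of -0.86 (FDR = 0.0321). Dkk3, a secreted Dickkopf-family protein, had 3554, 3051 and 3734 CPM and 2151, 1985 and 1834 CPM (log2 fold change -0.79, FDR = 0.00231).

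By fold change, the largest rises were from near absence in WT. Opalin, a membrane protein known from myelin-forming cells, had 0 counts in every WT library and 5.53, 2.48 and 2.48 CPM in OVE853, which puts its mean at least 30.8-fold higher than 3 counts per library would allow. Kng2, a kininogen, had 0.224, 0.192 and 0.0701 CPM and 12.2, 12.5 and 12.5 CPM. Gal, the neuropeptide galanin, had 0.402, 0.923 and 1.33 CPM and 54.6, 23.6 and 42.6 CPM. Spp1, osteopontin, had 0.805, 0.192 and 1.44 CPM and 20.5, 14.5 and 28.6 CPM. Tgfbi, a matrix protein named for its induction by TGF-β, had 3.89, 4.08 and 2.91 CPM and 87.9, 57.8 and 108 CPM (log2 fold change 4.55, FDR = 6.16e-06). None of these genes overlapped between the groups, and all had log2 fold changes over 4.

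The largest falls were smaller in size. Mt1, a metallothionein that binds zinc and copper, fell from 63.8, 47.6 and 62.9 CPM to 6.28, 8.34 and 3.17 CPM (log2 fold change -3.29, FDR = 0.00182). Sgk1, a kinase that controls ion channels and transporters, had 66.8, 68.1 and 117 CPM and 10.2, 8.52 and 10.2 CPM (log2 fold change -3.12, FDR = 3.96e-05). Thrsp, a regulator of lipid synthesis, had 14.1, 19.1 and 29.9 CPM and 2.54, 3.89 and 2.48 CPM. Slc6a13, a GABA transporter also listed as a marker of the non-pigmented ciliary epithelium, had 39.9, 40.5 and 76.9 CPM and 7.73, 6.04 and 3.57 CPM. Cplx3, Scg2, Rlbp1 and Nap1l5 were also among the 10 largest falls, but their WT levels came mostly from replicate 3, with 14.9, 19.5 and 131 CPM for Cplx3 and 15.3, 19.1 and 122 CPM for Scg2. Without that library Cplx3 (FDR = 0.0508) and Scg2 (FDR = 0.108) did not pass and Nap1l5 was not tested, while Rlbp1 kept a log2 fold change of -1.80.

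By consistency, meaning the smallest FDR, the elevated genes again had several functions. Myl9, a regulatory light chain of smooth muscle myosin, had 28.4, 31.7 and 26.3 CPM in WT and 192, 161 and 211 CPM in OVE853, a log2 fold change of 2.71 (standard error 0.12, FDR = 7.06e-07). Car9, a carbonic anhydrase known as a hypoxia target, had 5.68, 6.35 and 4.38 CPM and 92.2, 73.6 and 81.2 CPM. Cilp, a cartilage matrix protein, had 5.28, 5.42 and 4.03 CPM and 64.3, 59.2 and 59.1 CPM. Cfi, the complement factor I protease, rose from 2.55, 3.04 and 3.16 CPM to 124, 85.5 and 128 CPM (log2 fold change 5.26, FDR = 7.06e-07). Bcl3, an atypical IκB protein, had 0.760, 0.615 and 0.456 CPM and 23.7, 18.1 and 23.7 CPM. Jak3, a cytokine receptor kinase, had 9.84, 10.8 and 8.34 CPM and 57.6, 47.9 and 59.1 CPM. Sbno2, a nuclear regulator downstream of interleukin-10 and STAT3, had 22.05, 21.6 and 21.2 CPM and 120.1, 86.3 and 109 CPM. All 10 genes of this kind, with Tgfb1, Serpina3n and Klhl29 among them, were DEGs again without WT replicate 3.

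Among the reduced genes of smallest FDR, R3hdml and Gja1 were described above. Lrig1, a membrane protein that lowers signaling of the EGF receptor, had 227, 247 and 223 CPM in WT and 86.7, 97.3 and 90.2 CPM in OVE853 (log2 fold change -1.35, standard error 0.09, FDR = 6.52e-06). Car8, a carbonic anhydrase-related protein, had 59.7, 62.1 and 73.98 CPM and 13.1, 16.9 and 12.4 CPM. Prrt4 had 124, 156 and 125 CPM and 46.98, 47.9 and 43.8 CPM. Kcnk1, a potassium channel, had 56.3, 56.9 and 74.6 CPM and 25.2, 25.1 and 25.2 CPM. Cthrc1, a secreted collagen triple-helix protein, had 31.1, 32.8 and 35.6 CPM and 11.2, 10.7 and 11.1 CPM. Creb3l1, a transcription factor of the endoplasmic reticulum (ER) membrane, had 33.8, 36.2 and 37.6 CPM and 13.9, 15.9 and 16.1 CPM. With R3hdml, Sgk1 and BC048679 these make up the 10 reduced DEGs of smallest FDR, and each of the 10 was a DEG again without WT replicate 3.

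Functions were then counted over 39 lists of genes, of which 38 had tested members. The lists hold 1177 of the genes tested and 151 of the DEGs. Below, each list is given by its elevated and reduced DEGs and, for some, the median log2 fold change of its tested members. These stand beside 2.51% elevated, 1.91% reduced and a median of -0.01 over all genes tested. The members were chosen with earlier results of these libraries known, so that no list was tested as a set.

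**Figure D3:**
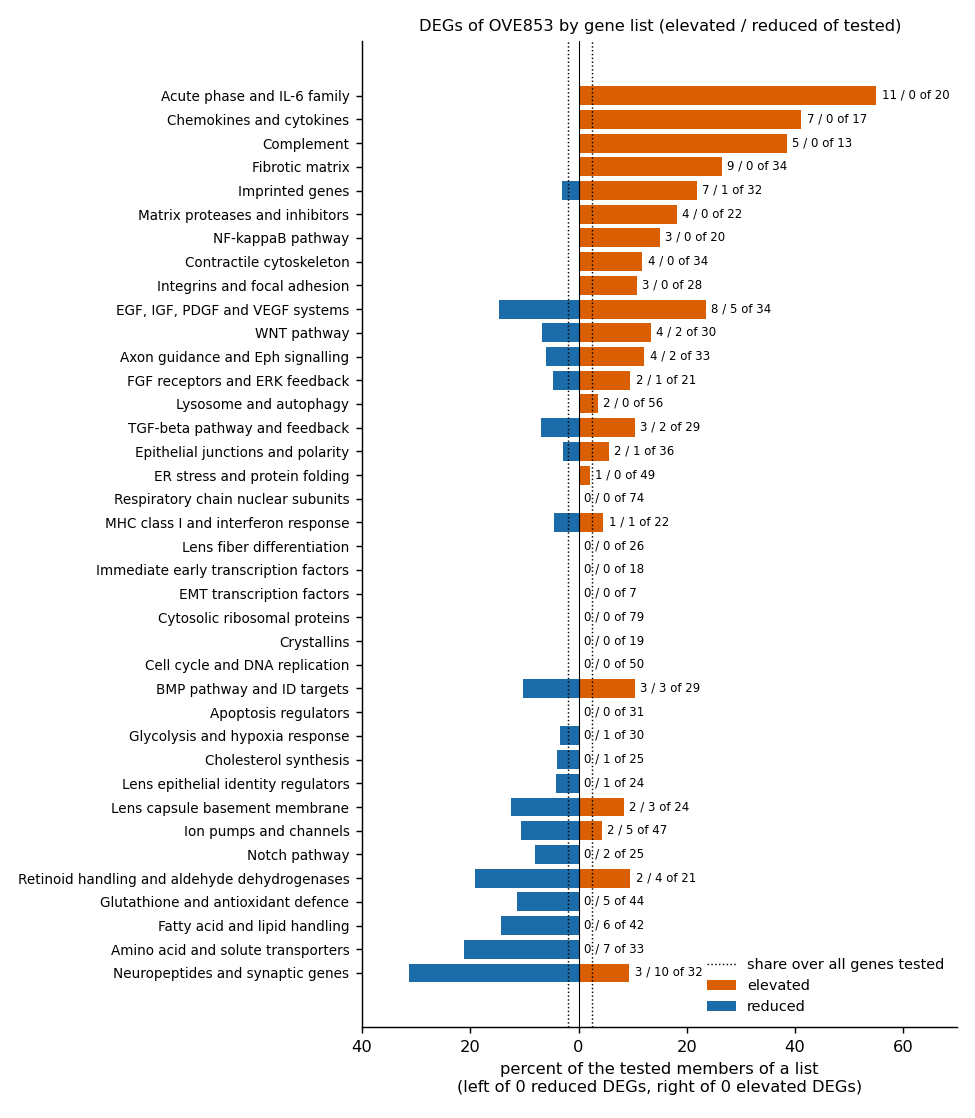
Percent of the tested members of each list (y axis) that were elevated DEGs (right of 0) or reduced DEGs (left of 0) in OVE853 against WT, with the counts printed as elevated / reduced of tested. Dotted lines mark the shares over all genes tested, 2.51% and 1.91%. Acute phase genes have the largest elevated share (11 of 20) and neuropeptide and synaptic genes the largest reduced share (10 of 32).

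Acute phase, chemokine and complement genes had the 3 largest elevated shares. In the list of the acute phase and the interleukin-6 family, 11 of 20 tested members were elevated DEGs and 0 were reduced, with a median log2 fold change of 1.53. Beside Cp and Serpina3n these included Gfap, an intermediate filament of glia and of reactive cells, with 104, 69.6 and 59.8 CPM in WT and 259.8, 288 and 283 CPM in OVE853 (FDR = 0.000223). Stat3, the transcription factor downstream of interleukin-6, had 99.7, 105 and 109 CPM and 229, 210.2 and 237 CPM, a log2 fold change of 1.11 (standard error 0.11, FDR = 0.00016). Of the 20 members, 10 were elevated DEGs without WT replicate 3. Serpina3 paralogs that neighbour each other on chromosome 12, such as Serpina3n and Serpina3h, count as separate members although their reads could be divided. Bcl3 is also counted in the NF-κB list. For complement, 5 of 13 members were elevated, 9 of 13 were higher at the FDR limit alone, and the median was 1.35. C3, the central component, had 20.8, 14.4 and 43.02 CPM and 250.3, 101 and 179.6 CPM (log2 fold change 2.76, FDR = 0.0158). Serping1, the C1 inhibitor, had 64.4, 61.7 and 92.5 CPM and 229.8, 170.5 and 196 CPM (log2 fold change 1.45, FDR = 0.000547).

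Among chemokines and cytokines 7 of 17 tested members were elevated and 0 reduced. Nampt, an NAD-producing enzyme that is also secreted, had 38.5, 39.7 and 38.9 CPM in WT and 129.5, 105 and 114 CPM in OVE853 (log2 fold change 1.58, FDR = 2.11e-05). Csf1, the macrophage growth factor, had 17.4, 13.1 and 16.3 CPM and 45.6, 37.8 and 42.01 CPM (log2 fold change 1.43, FDR = 0.000178). Ccl2, a monocyte chemokine, went from 2.86, 3.39 and 4.91 CPM to 22.7, 21.3 and 35.1 CPM, and Vcam1, an adhesion molecule for leukocytes, from 5.46, 2.31 and 8.48 CPM to 21.4, 12.9 and 19.4 CPM. In the NF-κB list 3 of 20 members were elevated, all of them inhibitors or IκB-like proteins, namely Bcl3, Nfkbia (14.1, 16.7 and 20.7 CPM to 36.7, 33.7 and 45.1 CPM) and Nfkbie (4.70, 6.15 and 5.50 CPM to 16.7, 13.9 and 18.3 CPM). Of the list of MHC class I and interferon genes, 1 of 22 was elevated, Ifitm1, and 1 was reduced, Usp18. Summed macrophage markers were 44.6, 25.9 and 63.95 CPM in WT and 91.6, 57.4 and 80.7 CPM in OVE853, which overlapped, and none of the 4 that were tested was a DEG, while 2 were elevated without WT replicate 3. The part of immune cells in these values was not tested, and more cells of a type cannot be told apart from more RNA per cell in whole-tissue libraries.

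The 250 bases before the annotated start of each gene (GENCODE vM39, GRCm39) were searched on both strands for motifs. The 16 elevated DEGs of the acute phase and complement lists were taken as a joint group, formed after the results were seen. Since they were chosen for their rise, their common direction was fixed, and the shares below are a description. Members of these lists that were not elevated DEGs were not counted as a separate group. CAGACA, the SMAD-binding element, was in the window of 6 of the 16 (37.5%). It was in 14.7% of all elevated DEGs, in 14.6% of the reduced and in 14% of all 11096 windows. The STAT motif TTCNNNGAA was in 2 of the 16 (12.5%), in 7.17% of the elevated DEGs and in 6.05% of all windows, and the NF-κB motif was in 2 of the 16 and in 1.23% of all. A total of 8 of the 16 windows (50%) held at least 1 of the 3 motifs, as did 20.3% of all windows. The 16 include neighbouring Serpina3 paralogs, so that their windows are not independent, and a part of the CAGACA motifs of Bcl3 directly follows a simple GATA repeat. The AP-1 motif TGANTCA was in 6.45% of the elevated DEGs, in 4.72% of the reduced and in 4.36% of all. For the other motifs, the shares in elevated DEGs, reduced DEGs and all windows were 0.358%, 0.472% and 0.261% for the SMAD palindrome GTCTAGAC, 2.15%, 1.89% and 1.87% for the CRE TGACGTCA, 1.79%, 1.42% and 0.964% for the sterol element TCACNCCAC and 53.8%, 54.7% and 48.6% for the metal element TGCNCNC. The ER stress element was in none of the DEG windows and in 0.126% of all. CAGACA overlaps neither of the STAT and NF-κB motifs in the windows shown here.

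The following windows are shown, 5′ to 3′ in the direction of the gene, with motifs on either strand in capitals. They are a part of the 8 windows of this group that hold a SMAD, STAT or NF-κB motif. The rest, those of Cfi and Bcl3 among them, hold SMAD or STAT motifs only. The windows shown were chosen after their values were seen. That of Serpina3n is chr12:104372560-104372809 on the plus strand and holds CAGACA starting 212 bases before the gene. Lcn2, which encodes the siderophore-binding lipocalin 2, has its window at chr2:32277810-32278059 on the minus strand, with the NF-κB motif 202 bases before the start. Serpina3h (chr12:104213856-104214105, plus strand) has the reverse complement of CAGACA 27 bases and the STAT motif 12 bases before the start, and Cfb, complement factor B (chr17:35081560-35081809, minus strand), has the NF-κB motif 66 bases and the reverse complement of CAGACA 18 bases before it.
Serpina3n: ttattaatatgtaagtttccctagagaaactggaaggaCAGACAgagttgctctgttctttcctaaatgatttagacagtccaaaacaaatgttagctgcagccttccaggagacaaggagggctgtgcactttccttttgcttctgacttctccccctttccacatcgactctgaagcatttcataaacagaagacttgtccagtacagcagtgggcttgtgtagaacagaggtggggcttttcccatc
Lcn2: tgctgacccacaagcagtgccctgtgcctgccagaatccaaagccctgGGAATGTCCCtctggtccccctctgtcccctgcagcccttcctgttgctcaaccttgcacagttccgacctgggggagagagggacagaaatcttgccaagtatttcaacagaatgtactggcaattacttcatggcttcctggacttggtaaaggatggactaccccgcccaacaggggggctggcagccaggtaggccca
Serpina3h: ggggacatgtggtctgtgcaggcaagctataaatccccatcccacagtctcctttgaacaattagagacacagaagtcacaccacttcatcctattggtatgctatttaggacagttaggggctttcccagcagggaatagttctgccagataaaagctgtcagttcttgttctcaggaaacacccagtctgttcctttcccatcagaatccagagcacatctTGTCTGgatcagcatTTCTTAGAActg
Cfb: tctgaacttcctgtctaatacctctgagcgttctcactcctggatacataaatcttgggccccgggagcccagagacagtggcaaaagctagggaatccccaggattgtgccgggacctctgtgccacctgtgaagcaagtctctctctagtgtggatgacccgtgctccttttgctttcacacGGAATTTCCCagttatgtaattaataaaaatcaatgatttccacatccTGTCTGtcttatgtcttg

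In the list of fibrotic matrix 9 of 34 tested members were elevated and 0 reduced, with a median of 0.62, which was 0.38 without WT replicate 3. At the FDR limit alone 14 members were higher and 2 lower. Summed markers of stromal fibroblasts, a list that shares Col6a3, were 1476, 1188 and 952 CPM in WT and 1639.5, 1575 and 1695 CPM in OVE853. All OVE853 sums were higher than in WT, but Col6a3 was the only DEG of the 5 tested markers. Each OVE853 sum exceeded that of WT replicate 1 by less than Col6a3 alone did. This list also shares Pdgfra with the markers of the lens epithelium. The part of stromal fibroblasts in these values was not tested. Col6a3, a chain of collagen VI, had 159, 145 and 62.02 CPM in WT and 399, 382 and 497 CPM in OVE853 (log2 fold change 1.80, FDR = 0.00349). Col5a1, a collagen V chain, had 61.5, 49.4 and 26.6 CPM and 90.4, 87.8 and 96.8 CPM. Fbln2, fibulin 2, had 39.7, 21.1 and 8.31 CPM and 99.03, 58.3 and 129.8 CPM. Aebp1, a collagen-binding protein, had the steadier values of 29.2, 21.6 and 24.8 CPM and 65.8, 49.99 and 63.9 CPM (log2 fold change 1.25, FDR = 0.0011). Of the capsule list 2 of 24 members were elevated, with Lama5 among them, and 3 reduced. The reduced members were Col18a1, Lama3, the laminin α3 chain, with 157, 252 and 254 CPM and 30.99, 31.1 and 35.1 CPM (log2 fold change -2.77, FDR = 0.00019), and Ntn4, a laminin-like netrin, with 30.6, 61.6 and 96.5 CPM and 13.99, 13.01 and 13.96 CPM. The median of the capsule list was 0.44, and 13 of its 24 members lay above all WT libraries, against 23.4% of all genes. Without WT replicate 3, where the summed CPM of the list was lowest (45743, 39769 and 21848 CPM in WT), 1 member was elevated and the median was 0.26.

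Of the proteases and inhibitors of matrix 4 of 22 were elevated and 0 reduced. Adamts4, an aggrecanase, had 141, 113 and 47.02 CPM and 233, 200.2 and 226 CPM. Adamts6 had 45.4, 39.6 and 19.3 CPM and 73.3, 73.6 and 71.9 CPM. Timp1, an inhibitor of metalloproteinases, had 11.8, 11.7 and 8.70 CPM and 55.2, 48.5 and 66.6 CPM (log2 fold change 2.41, FDR = 0.000105). Mmp2, a gelatinase, had 10.9, 8.50 and 4.59 CPM and 19.97, 18.8 and 24.3 CPM. Without WT replicate 3 the number was 2, since neither Adamts4 nor Adamts6 was a DEG (log2 fold changes 0.79 and 0.78). Among integrins 3 of 28 members were elevated, all of them α chains. Itga8 had 13.3, 9.23 and 2.03 CPM and 30.2, 40.7 and 42.8 CPM. Itga7 had 6.84, 7.31 and 6.98 CPM and 31.6, 21.8 and 42.9 CPM. The least abundant, Itga2, had 6.75, 4.77 and 2.80 CPM and 16.9, 15.4 and 12.1 CPM. In the contractile list 4 of 34 rose, with Myl9 among them. Tagln2, a transgelin that binds actin, had 62.6, 51.8 and 36.01 CPM and 136, 105 and 136 CPM. The actin crosslinker Flnc had 5.99, 11.2 and 12.5 CPM and 25.3, 14.6 and 21.3 CPM. Tagln, the smooth muscle transgelin, had 1.52, 0.731 and 0.456 CPM and 7.73, 5.67 and 11.6 CPM. The list's median was only 0.10. For the TGF-β pathway itself, 3 of 29 members were elevated, Tgfb1 and Tgfbi among them, and 2 reduced. Counts on Tgfb1 can hold the transgene, so that its rise cannot be read as a response of the pathway. The reduced members were the co-receptor Tgfbr3, with 27.99, 36.01 and 45.8 CPM and 13.2, 15.2 and 15.1 CPM (log2 fold change -1.34, FDR = 0.000619), and the decoy receptor Bambi, with 33.8, 19.4 and 21.7 CPM and 11.4, 10.2 and 11.3 CPM, and 1 member was reduced without WT replicate 3.

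Of EGF, IGF, PDGF, VEGF and neurotrophin genes 8 of 34 were elevated and 5 reduced, against 8 and 3 of 31 without WT replicate 3. Ngfr, the p75 neurotrophin receptor, had 108, 98.8 and 105 CPM in WT and 214, 220.5 and 218 CPM in OVE853 (log2 fold change 1.06, FDR = 3.96e-05), whereas Ntrk2, the receptor of brain-derived neurotrophic factor, had 208, 131 and 184 CPM and 70.1, 71.5 and 65.97 CPM (log2 fold change -1.33, FDR = 0.00634). Igf2r, which clears IGF2, rose from 54.2, 68.6 and 50.9 CPM to 161, 163 and 157 CPM. In the FGF list 2 of 21 members rose, the heparan sulfate proteoglycan Gpc1 (84.2, 71.01 and 55.1 CPM to 192, 184 and 184 CPM) and the feedback inhibitor Spry1 (14.3, 15.6 and 16.4 CPM to 45.2, 38.02 and 42.2 CPM, FDR = 2.53e-05), and 1 fell, Flrt1. At the FDR limit alone 10 of the 21 were higher and 1 lower, with a median of 0.43. When WT replicate 3 was left out, 4 were elevated DEGs and 0 reduced.

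Of the BMP list 3 of 29 members rose and 3 fell. Those that rose included 2 genes of activin-type ligands, which are not BMPs, namely Gdf11 (52.5, 47.4 and 24.3 CPM to 95.9, 94.6 and 96.9 CPM) and Inhbb (19.3, 20.5 and 15.7 CPM to 44.6, 38.2 and 42.96 CPM). Those that fell included the BMP antagonist Chrdl1, with 115, 160.4 and 201 CPM and 40.7, 47.7 and 47.04 CPM (log2 fold change -1.82, FDR = 0.000116), and the co-receptor Rgma. In the WNT list 4 of 30 rose, with the receptors Ror1 (63.7, 64.4 and 33.5 CPM to 104, 119 and 109 CPM), Fzd7 (31.04, 30.2 and 20.2 CPM to 58.3, 59.4 and 59.7 CPM) and Fzd2 among them, and 2 fell, including the WNT enhancer Rspo1 (121, 191 and 217 CPM to 58.6, 57.8 and 46.4 CPM, FDR = 0.000204). Leaving out WT replicate 3, 1 member was elevated and 1 reduced. For Notch 0 of 25 rose and 2 fell, the target genes Hes5 (47.3, 66.6 and 93.9 CPM to 26.5, 19.97 and 16.8 CPM, FDR = 0.00274) and Hes1 (110.1, 70.6 and 115 CPM to 48.5, 43.2 and 54.3 CPM, FDR = 0.0388), while 1 of 24 was reduced without WT replicate 3. Of axon guidance genes 4 of 33 rose and 2 fell, Ntn4 and Sema3d (26.8, 31.7 and 34.2 CPM to 9.79, 14.4 and 13.7 CPM), and 1 was reduced without WT replicate 3.

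Among neuropeptide and synaptic genes 10 of 32 were reduced and 3 elevated, with a median of -1.18. Penk, which encodes enkephalins, had 99.1, 98.1 and 203 CPM in WT and 19.7, 23.6 and 32.5 CPM in OVE853 (log2 fold change -2.40, FDR = 0.00862). Crhbp, which binds corticotropin-releasing hormone, had 119.9, 83.98 and 126 CPM and 49.1, 49.7 and 47.04 CPM. Abat, which breaks down GABA, had 127, 149 and 182 CPM and 66.3, 80.3 and 73.2 CPM. Without WT replicate 3, 4 of 30 tested members were reduced and the median was -0.59. The summed CPM of the list was 2618, 2776 and 5877 CPM in WT and 2688, 2730.1 and 2493 CPM in OVE853, so that WT replicates 2 and 3 lay above OVE853 and WT replicate 1 did not. The sum of retinal neuron markers moved with these values, and its part in them was not tested.

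Of amino acid and solute transporters 7 of 33 were reduced and 0 elevated. Beside Slc6a6 these were led by Slc6a9, a glycine transporter, with 92.03, 72.4 and 127 CPM and 37.7, 36.4 and 35.8 CPM (log2 fold change -1.41, FDR = 0.00255), Slc13a4, a sulfate transporter, with 89.1, 52.7 and 90.4 CPM and 28.9, 26.9 and 18.04 CPM, and Slc1a3, a glutamate transporter, with 39.8, 38.2 and 142 CPM and 17.4, 16.8 and 11.1 CPM. Without WT replicate 3 the number was 3 of 31, and Slc13a4 (FDR = 0.0533) and Slc1a3 (FDR = 0.0783) did not pass. Of ion pumps and channels 5 of 47 were reduced and 2 elevated. Slc24a3, a sodium-calcium exchanger (62.7, 69.1 and 137 CPM to 31.2, 38.1 and 29.7 CPM), and the water channel Aqp4 (61.5, 64.01 and 117 CPM to 34.4, 41.1 and 37.8 CPM) fell, while Piezo2, a mechanically gated channel, rose from 31.6, 44.8 and 50.3 CPM to 135, 129.96 and 144 CPM (log2 fold change 1.69, FDR = 0.000366). Of the 11 tested markers of the non-pigmented ciliary epithelium 5 were reduced DEGs, Slc6a13 and Crhbp among them, although the summed CPM of that list, 1812, 1644 and 1568 CPM in WT and 1650, 1624 and 1809 CPM in OVE853, overlapped. The part of neighbouring tissue in these falls was not tested.

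In lipid handling 6 of 42 members were reduced and 0 elevated, with Apoe, Ptgds and Acsl3, which activates fatty acids (101, 77.7 and 210.4 CPM to 54.7, 58.4 and 49.1 CPM), among them. Leaving out WT replicate 3, where the levels of Apoe and Acsl3 were highest, 3 were reduced. Of cholesterol synthesis genes only Insig1, a sterol-regulated ER protein, was a DEG, with 165, 116 and 132 CPM and 54.9, 65.4 and 51.3 CPM (log2 fold change -1.27, FDR = 0.0014). Another 6 members of this list passed the FDR limit downward without a 2-fold change, 12 of 25 lay below all WT libraries and 0 above, and the median was -0.27. Of antioxidant genes 5 of 44 were reduced and 0 elevated, with Mt1 among the reduced. Prdx6, a peroxiredoxin, had 181, 262 and 462 CPM and 108, 105 and 96.2 CPM. Gpx3, a secreted glutathione peroxidase, had 178, 147 and 332 CPM and 59.3, 46.1 and 35.1 CPM. Sod3, the extracellular superoxide dismutase, had 42.4, 33.3 and 65.5 CPM and 23.9, 15.2 and 20.1 CPM. Without WT replicate 3, 3 were reduced. Of retinoid and aldehyde dehydrogenase genes 4 of 21 fell, with Aldh3a1, Rlbp1 and Rarres2 among them, and 2 rose, with Stra6, the cellular receptor of retinol-binding protein, at 7.24, 8.12 and 9.78 CPM and 29.7, 32.1 and 36.1 CPM (log2 fold change 1.96, FDR = 2.53e-05). Leaving out WT replicate 3, 2 of the 21 were reduced.

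Imprinted genes, which are transcribed from 1 parental allele, held some of the largest and most abundant rises. Of 32 tested members 7 were elevated and 1 reduced, while the median of the list was 0.08. Beside Peg3, its neighbour Zim1 had 0.447, 0.462 and 0.0701 CPM in WT and 38.9, 52.9 and 45.5 CPM in OVE853 (log2 fold change 7.16, FDR = 8.37e-05). The noncoding RNA H19 had 0.805, 1.15 and 0.561 CPM and 22.3, 23.8 and 11.9 CPM (log2 fold change 4.53, FDR = 0.000172). Meg3 and Rian, noncoding RNAs of 1 cluster on chromosome 12, had 25.4, 22.3 and 98.3 CPM and 232, 189 and 202 CPM for Meg3 and 7.78, 7.31 and 30.3 CPM and 76.9, 71.4 and 65.9 CPM for Rian. Both were highest in WT replicate 3 among WT libraries, so that their log2 fold changes of 2.09 and 2.23 became 3.12 and 3.24 without it.

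Several functions had few or no DEGs. Of epithelial junction genes 2 of 36 rose, the claudin Cldn10 among them, and 1 fell, Gja1. Of the 7 tested transcription factors of EMT none was a DEG, nor did any pass the FDR limit. Their median was 0.53, and 4 of the 7 lay above all WT libraries and 0 below, against 23.4% and 22% of all genes. The list holds 21 genes, most of which were not tested, and with no filter the median of the 21 was -0.28. Zeb2 had 72.6, 77.6 and 69.3 CPM in WT and 95.98, 102 and 103 CPM in OVE853 (FDR = 0.101). Zeb1 had 37.8, 34.1 and 30.96 CPM and 44.5, 42.2 and 47.7 CPM (FDR = 0.0737). Immediate early genes had no DEG among 18 and varied widely within both groups. Fos had 382, 31.4 and 315 CPM and 139.6, 68.8 and 621 CPM. The 19 crystallins and the 26 genes of fiber differentiation also had no DEG. Crybb2 had 37065, 43629 and 51092 CPM and 26747, 27101 and 21575 CPM (FDR = 0.0559). Of regulators of epithelial identity, Rax was the only DEG (27.1, 21.04 and 37.8 CPM to 13.8, 11.5 and 10.2 CPM), and among 56 lysosome genes 2 rose, the cathepsins Ctsc (37.4, 20.7 and 19.5 CPM to 65.7, 48.8 and 92.01 CPM) and Ctss (3.76, 2.19 and 9.85 CPM to 31.1, 18.6 and 28.5 CPM), with 1 DEG left without WT replicate 3. Of apoptosis regulators none was a DEG, and of glycolysis genes only Ldhb, a lactate dehydrogenase chain, was, with 42.9, 45.5 and 108 CPM and 10.6, 14.1 and 12.97 CPM. In the cell cycle list no DEG was found among 50 members. Its median was 0.41, and it fell to 0.15 without WT replicate 3, where the summed CPM of the list was lowest (2119, 2159.8 and 1333 CPM in WT, 2157, 2180.5 and 2369 CPM in OVE853). Leaving out WT replicate 3, 1 transcription factor of EMT, 1 crystallin and 1 immediate early gene became elevated DEGs. The genes named here for lists without DEGs are among the most abundant members.

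In the list of ER stress and protein folding, Ero1a, an oxidase for protein disulfide bonds, was the only DEG, with 38.7, 33.3 and 21.9 CPM in WT and 75.2, 91.6 and 70.6 CPM in OVE853 (log2 fold change 1.34, FDR = 0.00307). At the FDR limit alone 15 of 49 members were higher and 2 lower, and 33 lay above all WT libraries, which 23.4% of all genes did. The summed CPM of the list was 6042, 5635 and 4951 CPM in WT and 7498, 8102 and 7067 CPM in OVE853, with a median log2 fold change of 0.26. The nuclear subunits of the respiratory chain, which carries out oxidative phosphorylation in mitochondria, mostly had lower means. None of 74 was a DEG, 6 were lower at the FDR limit alone, and 63 lay below all WT libraries, against 22% of all genes. Their summed CPM was 6744, 6881 and 7445 CPM in WT and 5701, 5936 and 5508 CPM in OVE853, with a median of -0.34. Atp5f1b, a subunit of ATP synthase, had 784, 710.3 and 753 CPM and 613, 609.6 and 585 CPM (FDR = 0.0519). The 13 mitochondrially encoded transcripts in the count table did not share this direction, and none was tested in the main fit. Their summed CPM was 14620, 13834 and 13338 CPM in WT and 15848, 18497 and 14248 CPM in OVE853, which overlapped. With edgeR's own filter on low counts, their median was 0.40 and 1 of the 13 was an elevated DEG. Of 79 cytosolic ribosomal protein genes 0 passed the FDR limit and 46 lay below all WT libraries, with a median of -0.22 and sums of 29478, 33681 and 32195 CPM and 27672, 28115 and 26256 CPM.

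Over all alternatives tried, including the other scaling factors, the medians stayed between 0.23 and 0.29 for ER genes, -0.39 and -0.29 for the respiratory chain and -0.27 and -0.18 for ribosomal proteins. Gene length moved with these values. The median log2 fold change was -0.13 in the 2222 genes with the shortest exons (up to 1413 bases), then -0.07, -0.01 and 0.04, and 0.13 in the 2220 longest (from 5811 bases). In the shortest bin were 39 of the 74 respiratory chain genes and 52 of the 79 ribosomal protein genes, against 6 of the 49 ER genes. Of the 24 tested genes of the capsule list, described above with a higher median, 18 were in the longest bin. The same bins differed between WT libraries, with a median of -0.14 in WT replicate 1 and 0.07 in WT replicate 3 for the shortest genes relative to the WT mean. The part of length in the medians of the lists was not tested.

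**Figure D4:**
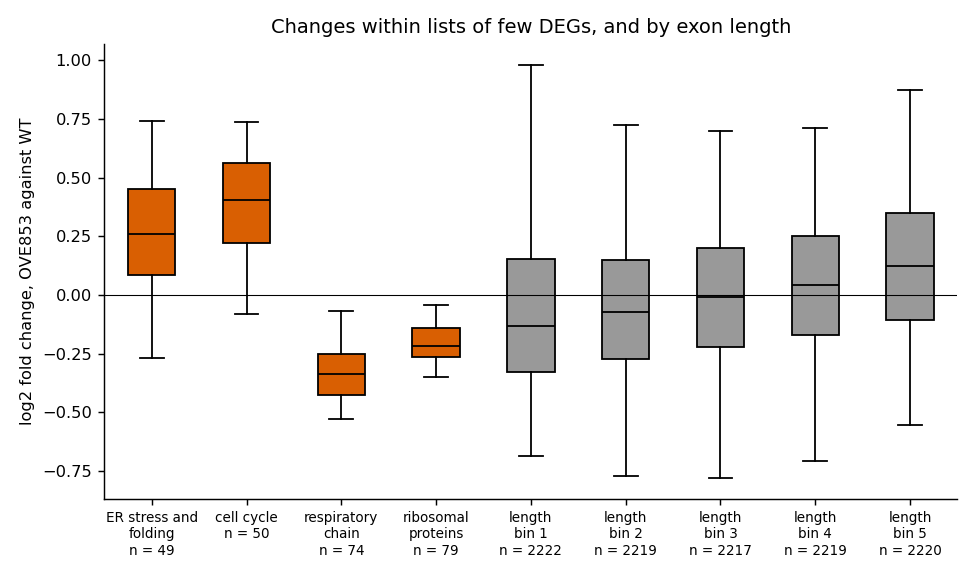
Log2 fold changes in OVE853 against WT (y axis) of the tested members of 4 lists and of all genes tested in 5 bins from the shortest to the longest exons, as boxes from the lower to the upper quartile with the median as a line and whiskers from the 5th to the 95th percentile. The medians were 0.26 for ER genes, -0.34 for the respiratory chain and -0.22 for ribosomal proteins, and they went from -0.13 to 0.13 across the length bins.

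The minimum of 2 FPKM (fragments scaled to exon length and library size) in 5 of the 10 libraries cannot be met by a gene that is expressed in the 3 WT libraries alone. With the minimum required in 3 libraries, another 580 genes were tested, of which 25 (4.31%) were elevated and 83 (14.3%) reduced. A gene that entered only through the WT libraries was selected where it is high, which makes the shares and the values that follow a description. With them OVE853 had 306 elevated (2.62%) and 293 reduced (2.51%) DEGs among 11677 genes. With edgeR's own filter on low counts, 572 (3.17%) were elevated and 672 (3.72%) reduced of 18058. For 63 of the 83, replicate 3 had the highest level of WT. The most abundant of those that fell without overlap included Slc7a11, the cystine transporter that feeds glutathione synthesis, with 85.7, 128 and 161 CPM in WT and 19.002, 15.6 and 13.7 CPM in OVE853 (log2 fold change -2.95 in that fit). Jph2, which joins the ER to the plasma membrane, had 49.8, 63.01 and 69.8 CPM and 5.50, 9.64 and 10.8 CPM. Prima1, which anchors acetylcholinesterase, had 24.8, 62.01 and 84.6 CPM and 1.99, 1.59 and 2.25 CPM. Oca2, a melanosome protein, had 42.9, 60.2 and 73.7 CPM and 1.75, 3.82 and 2.69 CPM. Pex5l had 32.6, 61.7 and 80.4 CPM and 2.84, 3.30 and 2.48 CPM. Crybg3, a crystallin-domain protein, had 34.9, 52.4 and 51.96 CPM and 12.8, 13.3 and 12.97 CPM. Of those that rose, Cd109, a co-receptor that restrains TGF-β signaling, had 1.25, 1.69 and 1.26 CPM and 10.2, 7.52 and 7.18 CPM (log2 fold change 2.56). The chemokine Cxcl12 had 8.63, 8.85 and 6.63 CPM and 21.5, 16.8 and 21.7 CPM.

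OVE853 was then set against OVE918 to find changes that it does not share with that line. Tgfb1 was lower in OVE853, with 881, 715, 717 and 788 CPM in the 4 OVE918 libraries. Both comparisons use the same WT libraries, so that each line's own values are given side by side. OVE918 had 621 DEGs (5.6% of genes tested), 286 elevated (2.58%) and 335 reduced (3.02%). Of the 491 DEGs of OVE853, 121 were no DEGs of OVE918 (79 elevated, 42 reduced), but 56 of these passed the FDR limit there without reaching a 2-fold change. The remaining 65 (0.586% of genes tested, 42 elevated and 23 reduced) missed the FDR limit in OVE918. The lines themselves differed at 54 genes (0.487%) when tested directly, of which 46 were higher in OVE853 and 8 higher in OVE918. The direct count depended on single libraries, and 5, 9 and 6 genes were higher in OVE853 without its replicates 1, 2 and 3, 27 without WT replicate 2, and 12 and 10 without OVE918 replicates 1 and 4. Only 4 genes (0.036%) were DEGs of OVE853, missed the FDR limit in OVE918 and also differed between the lines as DEGs.

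Nlgn4l, a neuroligin-like adhesion protein, had 17.04, 14.7 and 14.5 CPM in WT, 36.1, 32.2 and 33.2 CPM in OVE853 and 13.7, 17.99, 14.3 and 11.4 CPM in OVE918. The OVE853 libraries stood above all others, with log2 fold changes against WT of 1.14 in OVE853 (FDR = 0.000732) and -0.10 in OVE918 (95% interval -0.41 to 0.21) and a difference of OVE918 minus OVE853 of -1.24 (FDR = 0.00692). It met the rule in all 18 alternative fits. Its gene is on chromosome X, and the part of the sex mix of the pools in its values was not tested. A2m, the broad protease inhibitor α2-macroglobulin, had 36.3, 24.97 and 25.98 CPM in WT, 81.7, 77.6 and 69.95 CPM in OVE853 and 40.6, 24.2, 43.1 and 30.5 CPM in OVE918, with log2 fold changes of 1.39 (FDR = 0.00193) and 0.25 (95% interval -0.19 to 0.69) and a difference of -1.14 (FDR = 0.0304), and it met the rule in 12 of the 18. Unc5b, a netrin receptor, had 16.9, 14.5 and 11.01 CPM, 40.96, 28.9 and 45.4 CPM and 14.6, 14.2, 23.2 and 10.2 CPM, with log2 fold changes of 1.44 and 0.14 and a difference of -1.30 (FDR = 0.0458), and met the rule in 8 of the 18. Chi3l1, a chitinase-like secreted protein, was the only one lower than WT, with 20.7, 18.003 and 54.3 CPM in WT, 7.64, 4.67 and 6.74 CPM in OVE853 and 112, 30.4, 123 and 130.4 CPM in OVE918. Its log2 fold changes were -2.28 in OVE853 (FDR = 0.0391) and 1.67 in OVE918 (95% interval 0.40 to 2.94), on opposite sides of WT, and the difference was 3.95 (FDR = 0.0355). It met the rule in 8 of the 18. Its fall in OVE853 was not past the limit without WT replicate 3 (log2 fold change -1.60, FDR = 0.124).

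Among the other DEGs of OVE853 that changed least in OVE918, Nol3, an inhibitor of apoptosis, had 54.7, 66.8 and 86.95 CPM in WT, 33.5, 34.2 and 33.4 CPM in OVE853 and 72.99, 49.5, 60.6 and 84.01 CPM in OVE918. Its difference between the lines of 0.99 passed the FDR limit (FDR = 0.0414) but was just under 2-fold. Shank1, a synaptic scaffold protein, had 113, 118 and 88.7 CPM, 278, 199 and 263 CPM and 123, 168, 126 and 76.7 CPM, with a difference of -0.998 (95% interval -1.49 to -0.50, FDR = 0.0602). Myo7a, an unconventional myosin, had 34.3, 51.2 and 50.2 CPM, 103, 79.97 and 105 CPM and 63.3, 69.7, 51.7 and 37.4 CPM, with a difference of -0.79 (95% interval -1.25 to -0.32, FDR = 0.0815). For both of these the test of the difference did not pass. Angptl6, H2ac18, Cimip3 and Gm24494 had means under 8 CPM in all groups, and their differences between the lines did not pass either, with FDR values from 0.0753 to 0.116.

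All 5 complement DEGs had higher means in OVE853 than in OVE918. Of all 279 elevated DEGs, 184 had the larger fold change in OVE853, the line in which they were chosen. Cfi had 54.6, 46.6, 66.1 and 42.9 CPM in OVE918 against 124, 85.5 and 128 CPM in OVE853, a difference of -1.10 (FDR = 0.0218), and C4b had 253, 201, 304 and 195 CPM against 645, 502 and 608 CPM, a difference of -1.30 (FDR = 0.0396). Both remained DEGs of OVE918. Serping1 had 109.6, 85.3, 115 and 119 CPM in OVE918, and its difference of -0.89 passed the FDR limit only (FDR = 0.0382). C3 had 72.2, 28.5, 97.99 and 93.7 CPM in OVE918, where its log2 fold change of 1.48 missed the FDR limit (FDR = 0.0892), but the difference between the lines of -1.28 did not pass (95% interval -2.42 to -0.13, FDR = 0.185). Several reduced genes had fallen less in OVE853 than in OVE918, with differences past both limits for Col18a1 (-1.44), Optc (-1.62), Ntrk2 (-1.25) and Crhbp (-1.67). Crhbp is a listed marker of the non-pigmented ciliary epithelium, and 4 of the 11 tested markers of that list were DEGs between the lines. The summed CPM of the list was 1133, 891.6, 1051 and 979.6 CPM in OVE918, below all OVE853 libraries (1650, 1624 and 1809 CPM). The part of neighbouring tissue in these differences was not tested. The medians of the respiratory chain and ribosomal protein lists, -0.34 and -0.22 in OVE853, were 0.08 and 0.20 in OVE918, and none of their members was a DEG between the lines. Without OVE918 replicate 4 the medians of OVE918 were -0.03 and 0.08, so that the sign for the respiratory chain depended on that library.

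**Figure D5:**
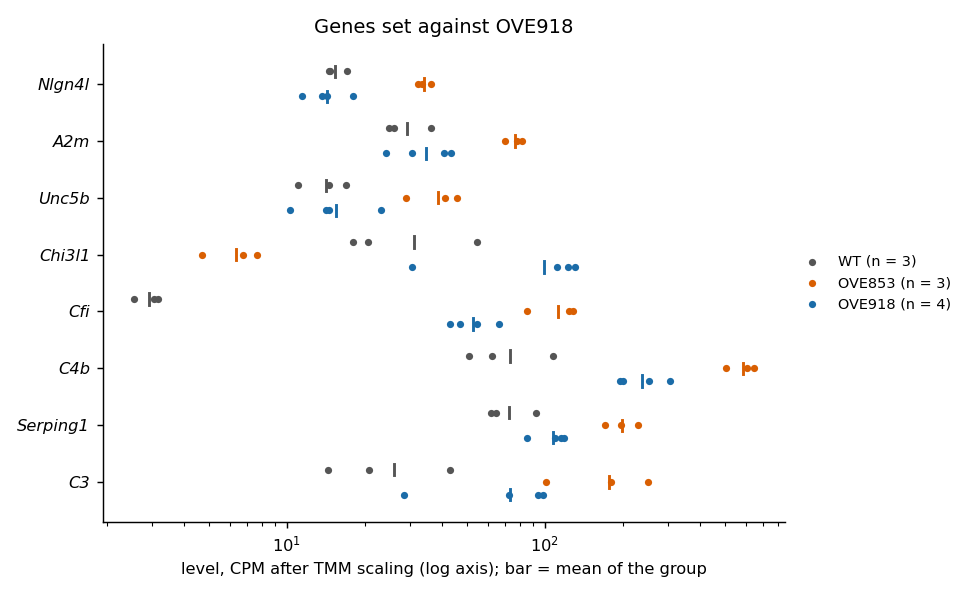
Levels in CPM after TMM scaling (x axis, log scale) of the 4 genes that met the rule for a difference from OVE918 and of 4 complement genes, with 1 point for each of the 3 WT, 3 OVE853 and 4 OVE918 libraries and a bar at each mean. For Nlgn4l, A2m, Unc5b, Cfi, C4b, Serping1 and C3 the OVE853 points lie above all others, and for Chi3l1 they lie below.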

How the data were processed

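mRNA libraries of pooled lens epithelia of 3 WT, 3 OVE853 and 4 OVE918 replicates were sequenced. The authors deposited 1 table of raw gene counts (RefSeq gene symbols, mm39), and their processing notes name cutadapt 5.2, STAR 2.7.11b, featureCounts 2.0.8 and edgeR 4.6.3. The depth was 24073311 to 31908525 counts per library. A count of 0 allows up to 3 counts, which covers counting error only.

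Counts were tested with edgeR 4.0.16 (R 4.3.3, limma 3.58.1): TMM scaling, 1 fit of the 3 groups, robust quasi-likelihood test and Benjamini-Hochberg adjustment over all genes tested, with DEGs past FDR 0.05 and changed at least 2-fold either way. Genes needed 2 FPKM in 5 of 10 libraries, with exon lengths of GENCODE vM39 matched by symbol for 43252 genes and by synonym for 22 of 50763, so that unmatched genes were not tested. Standard errors are the log2 fold change divided by the square root of F, and intervals cover 95 percent. Labels call the replicates biological, and same-numbered replicates were not taken as pairs. In simulated counts with 200 genes changed 4-fold in OVE853, 191 were recovered with 4 false calls among 11097 genes. All simulated libraries shared the mean and the fitted spread of each gene, apart from these changes. The simulation thus holds no deviating library such as WT replicate 3, and it does not measure how 2-fold changes are recovered.

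The members and lists were chosen with earlier results of these data known. Genes were named if they were among the 10 largest rises or falls, the 10 largest gains or losses in CPM, the 10 most abundant or the 10 of smallest FDR in each direction, up to 4 DEGs per list (otherwise abundant members), or the DEGs differing from OVE918, and other names are said to be chosen after their values were seen. Some genes that met this rule are not reported here. Promoters were read from GRCm39 at GENCODE canonical starts. Alternatives were DESeq2 1.42.0, RLE and upper-quartile factors, other filters, a fit of the compared groups only, a replicate block, each library left out and no minimum fold change.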

Additional observations from a re-analysis of the deposited data

Results flagged for a closer look

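For 12 of the 134 DEGs named, the change from WT differed between OVE853 and OVE918 in the direct test of the 2 lines (FDR of at most 0.05 and at least 2-fold, edgeR quasi-likelihood). On the log2 scale, as OVE918 minus OVE853, the differences were 1.15 for Tgfb1 (FDR = 0.00388), 2.07 for Opalin (FDR = 0.048), -1.10 for Cfi (FDR = 0.0218), -1.30 for C4b (FDR = 0.0396) and -1.14 for A2m (FDR = 0.0304). Nlgn4l differed by -1.24 (FDR = 0.00692), Unc5b by -1.30 (FDR = 0.0458) and Chi3l1 by 3.95 (FDR = 0.0355). Among genes that were lower than WT in both lines, the differences were -1.62 for Optc (FDR = 0.0485), -1.44 for Col18a1 (FDR = 0.00966), -1.25 for Ntrk2 (FDR = 0.0382) and -1.67 for Crhbp (FDR = 0.0414).

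In Gm24494, a gene of low abundance, 1 of the 4 OVE918 libraries lay apart from the others, with a gap of 0.850 of the group's range, past Dixon's 95 percent critical value. Only 13 genes were checked in this way, and chance flags about 1 in 20.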

How the results depend on the processing

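None of the 134 named DEGs turned its direction in any of the 18 alternative fits that tested it (2 to 6 were not tested in each fit without a library), and the call was kept in 2115 pairs of gene and fit and lost in 257. The counts of 279 elevated and 212 reduced DEGs were 572 and 672 with edgeR's own filter, 517 and 544 with no filter and 899 and 853 with no minimum fold change, so that the balance turned to reduced genes under both filters. With 1 library left out they ranged from 202 to 366 and from 123 to 298. The direct counts of 46 higher in OVE853 and 8 higher in OVE918 were 71 and 35 with DESeq2, 25 and 3 with the replicate block and 104 and 42 with no minimum fold change, and the 8 became 13 with no filter and 29 in the fit of the compared groups only. Without 1 library they ranged from 5 to 68 and from 1 to 33. The 3 elevated DEGs of OVE853 that missed the FDR limit in OVE918 and differed between the lines were 5 in the fit of the compared groups only, 1 with the replicate block and 16 with no minimum fold change, and the 1 reduced gene was 2 with upper-quartile factors, 2 with edgeR's own filter, 3 in the fit of the compared groups only and 9 with no minimum fold change. Without 1 library they ranged from 1 to 6 and from 0 to 3. The DEGs in lists, 89 elevated and 62 reduced, were 205 and 147 with no minimum fold change, the reduced were 114 with edgeR's own filter, and without 1 library they ranged from 63 to 113 and from 35 to 67. The cause of these shifts was not tested. With the replicate block, 273 elevated and 168 reduced genes were DEGs, but same-numbered libraries of WT and OVE853 did not deviate together (r = -0.0661, 0.0699 and -0.0563), so the numbers were not taken as pairs. Where 1 library was left out of a group, the spread was still pooled over the 3 groups. Genes of low counts and genes seen in WT alone are limited by depth and by the minimum in 5 libraries.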
